A study of Mus musculus with 6 samples.

Results

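The genes described here encode the proteins of the cytosolic ribosome. They were taken as every row of the gene count table whose identifier belongs, in the GENCODE vM21 mouse annotation, to a protein-coding gene with a symbol of the Rpl or Rps series followed by a number and at most one of the letters a, x, y or l, or to Rplp0, Rplp1, Rplp2 or Rpsa. The kinase genes named Rps6k were left out. The rule found 80 genes among 46983 rows, of which 49 belong to the large subunit and 31 to the small subunit.

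The livers came from mice of the C57BL/6 background that were 12 weeks old, fed chow and otherwise untreated. The knockout mice, AEG-1DHEP, lack AEG-1 in hepatocytes, and the control mice were AEG-1fl/fl, which carry the floxed allele. AEG-1, encoded by Mtdh, is a protein anchored in the membrane of the endoplasmic reticulum. What drives the recombinase is not given in the sources used here, and the other liver cells of the knockout mice are expected to keep the gene. RNA was sequenced from whole liver, with 3 mice labelled per group. The knockout libraries held 29557477, 32335414 and 33685670 counts, and control libraries 1 and 3 held 30819997 and 30965664. The column of control 2 was identical to that of control 1 in all 46983 rows, so these were counted as 1 sample, and each comparison set 3 knockout libraries against 2 distinct control libraries.

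Mtdh had 89, 74 and 76 counts in the knockout libraries, against 1529 and 1612 in the control libraries. It fell by 4.36 on the log2 scale (SE 0.15, adjusted p = 0.000564, edgeR's quasi-likelihood test with Benjamini-Hochberg adjustment over all genes tested). No knockout library overlapped a control library. Markers of hepatocytes were abundant in every library: 8 of them together held 76200, 76500 and 88400 CPM (counts scaled to the same library size for every mouse) in the knockout and 98700 and 68900 in the control libraries.

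A ribosome is assembled in the nucleolus from ribosomal RNA and roughly equal numbers of each ribosomal protein, so the genes for these proteins are highly expressed and their products are needed in fixed proportion. Most of their mRNAs begin with a run of pyrimidines at the very start, the terminal oligopyrimidine (TOP) tract, through which the TOR kinase and LARP1 set their translation. The liver, which makes most plasma proteins, is a tissue of heavy protein synthesis. Mammalian genomes also hold many processed pseudogenes of ribosomal protein genes, which are copies of the spliced mRNA inserted elsewhere in the genome.

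No ribosomal protein gene passed the test for a difference between knockout and control livers. Of the 80 genes, 77 passed the filter on low counts, 46 of the large and 31 of the small subunit. None of the 77 passed an adjusted p of 0.05 in edgeR's quasi-likelihood test, and none did in DESeq2. Over all 16441 genes tested, 0.00608% passed in edgeR, which was Mtdh alone, and 0.0815% of the 20849 genes with an adjusted p passed in DESeq2. At an unadjusted p under 0.05, 1 member remained, Rpl13, against 3.43% of all genes. In whole liver, a difference in the number of cells of a type and one in the RNA per cell cannot be told apart.

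The log2 fold changes were centred near zero. The median was 0.03 for the large and 0.05 for the small subunit, beside 0.01 for all genes tested. The central part of the members, between the quartiles, lay between -0.03 and 0.09, against -0.13 and 0.13 for all genes. Values above zero were found for 28 of 46 large subunit genes and 22 of 31 small subunit genes, beside 8562 of all 16441 genes. The extremes were Rpl29 at 1.81 and Rpl19 at -0.27. The half-width of the 95% confidence interval had a median of 0.40 over the 77 members, and the interval lay within 1 log2 unit of zero for 74 of them and within 0.5 for 46. For the 31 members outside that narrower band, a difference of 0.5 log2 units is not excluded by these libraries.

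**Figure D1:**
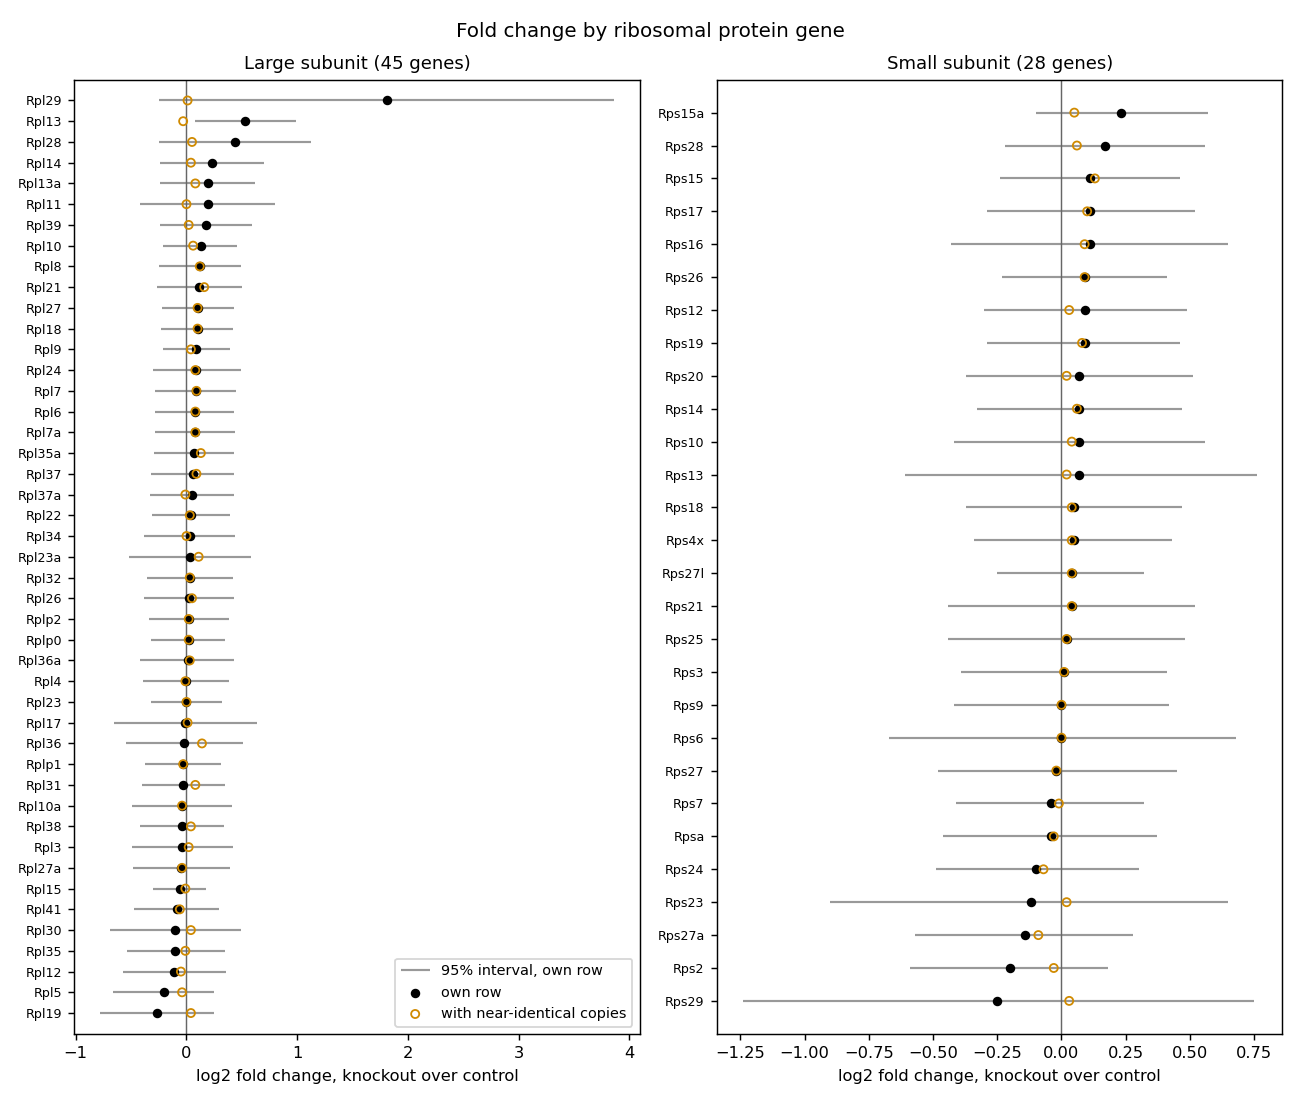
Log2 fold change of knockout over control livers (horizontal axis) for 45 large and 28 small subunit genes tested, with filled points for the gene's own row, grey bars for its 95% confidence interval and open points for the gene summed with its near-identical copies. Own rows spread between -0.27 and 1.81, whereas the sums lie between -0.09 and 0.16.

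The members varied together from mouse to mouse. The summed level of the large subunit genes was 2101, 2047 and 2455 CPM in the knockout livers, against 2357 and 1919 CPM in the control livers. For the small subunit it was 1589, 1497 and 1845 CPM in the knockout livers, against 1820 and 1393 CPM in the control livers. In both subunits knockout 3 and control 1 were high, control 3 was lowest, and the groups overlapped. Control 1 was above control 3 for 71 of the 77 genes, whereas 50.7% of all genes tested had that order. Knockout 3 was the highest of the knockout libraries for 69 of the 77 genes, against 36.4% of all genes. These shares describe the order of single libraries and are no test of the genotype. The median log2 ratio of control 1 over control 3 was 0.33 for the large and 0.40 for the small subunit, several times the median difference between the genotypes.

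**Figure D2:**
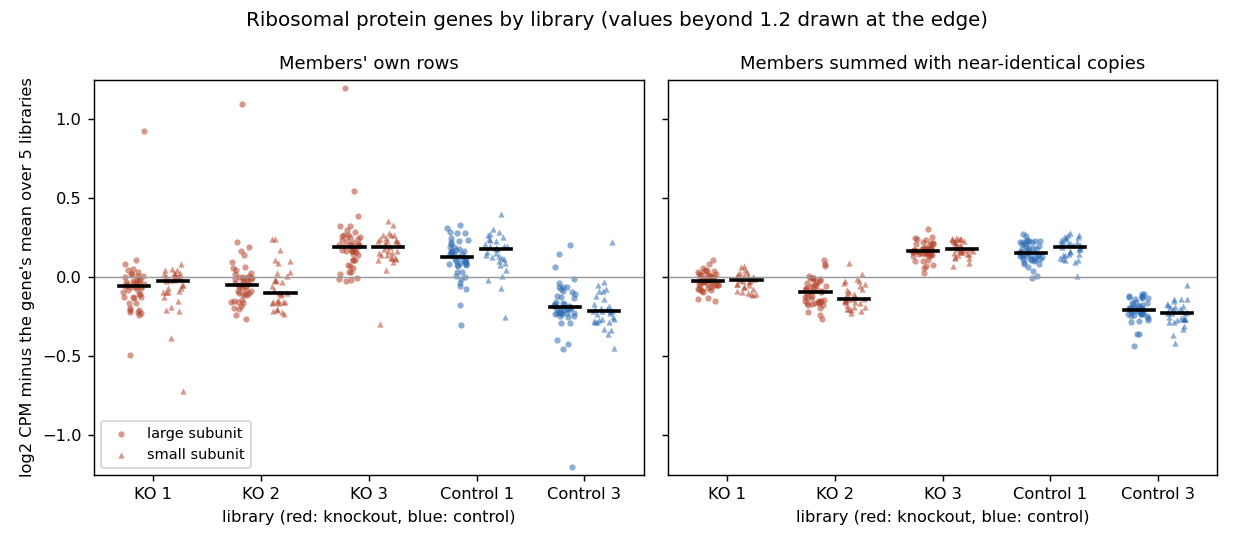
Deviation of each gene's log2 CPM from its mean over the 5 libraries (vertical axis) by library, with circles for large and triangles for small subunit genes and black lines for medians; on the left the genes' own rows, on the right the genes summed with their near-identical copies. Knockout 3 and control 1 lie above zero and control 3 below it for both subunits, so that the genotypes overlap.

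The balance between the subunits varied less than their levels. The ratio of the large to the small subunit sum was 1.32, 1.37 and 1.33 in the knockout livers, against 1.29 and 1.38 in the control livers, whose range takes in all 3 knockout values. Expressed as a share of its subunit's sum, a gene with a mean of at least 200 counts spanned a median of 0.20 log2 units between its lowest and highest library, against 0.45 log2 units for its CPM. Of the 60 such genes, 37 stayed within 0.25 log2 units as a share and 2 did as CPM. The widest spans of the share were those of Rpl29 at 5.21 and Rps29 at 1.18 log2 units, and both genes have low counts in their own rows.

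Among the large subunit genes, Rpl4, whose product lines the exit tunnel of the nascent chain, had the highest level per length. Its level was 421, 381 and 476 CPM in the knockout livers, against 465 and 389 CPM in the control livers (log2 fold change 0.00, SE 0.16). Rpl8, whose product lies close to the peptidyl transferase centre, had 182, 186 and 216 CPM in the knockout livers, against 198 and 160 CPM in the control livers (log2 fold change 0.12, SE 0.16). For both genes the groups overlapped, with control 3 below or near the lowest knockout liver.

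The stalk proteins recruit the elongation factors to the ribosome. Rplp0, the base of the stalk, averaged 149 ± 14.7 CPM in the 3 knockout livers and 147 ± 13.9 CPM in the 2 controls (mean ± SD, as in the averages that follow). Rplp1, which pairs with Rplp2 on that base, averaged 89.5 ± 5.07 CPM in the knockout livers and 91.3 ± 14.9 CPM in the control livers. Rplp2 averaged 20.6 ± 2.08 CPM in the knockout livers and 20.2 ± 3.48 CPM in the control livers. In all of the stalk genes the difference was smaller than the spread within a group. Rpl12, which sits beside the stalk base, averaged 24.2 ± 4.15 CPM in the knockout livers and 26.0 ± 5.80 CPM in the control livers.

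Rpl13a, known in human cells also as a silencer of translation when it is released from the ribosome, averaged 147 ± 29.4 CPM in the knockout livers and 129 ± 3.60 CPM in the control livers (log2 fold change 0.19, SE 0.18). Its knockout average was carried by knockout 3 at 180 CPM, since knockout 1 had 126 and knockout 2 had 133 CPM beside 131 and 126 CPM in the control livers. Rpl5, which with Rpl11 and 5S ribosomal RNA can bind the p53 regulator MDM2, was at -0.20 on the log2 scale (SE 0.19), and Rpl11 was at 0.19 (SE 0.25). Rpl14, at 0.23 (SE 0.20), and Rpl30, at -0.10 (SE 0.25), also had groups that overlapped. The own rows of Rpl5 and Rpl11 held 2.18% and 1.02% of the counts of gene and near-identical copies, which are described below. Summed with these copies, Rpl5 was at -0.04 (SE 0.17) and Rpl11 at 0 (SE 0.17). The own rows of Rpl14 and Rpl30 held 13.2% and 3.71%, and as sums they were at 0.04 (SE 0.15) and 0.04 (SE 0.16).

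Rpl23a and Rpl35, whose products lie at the mouth of the exit tunnel, had wide ratios between the control libraries. Rpl23a had 9.80, 11.1 and 10.1 CPM in the knockout livers, against 12.7 and 7.52 CPM in the control livers. Rpl35 had 22.3, 21.5 and 27.0 CPM in the knockout livers, against 29.8 and 20.6 CPM in the control livers. In each of these genes the control values enclosed every knockout value.

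Among the small subunit genes, Rps27l had the highest level per exon length. It is a p53-inducible paralogue of Rps27 and had 91.7, 86.5 and 99.5 CPM in the knockout livers, against 91.9 and 88.7 CPM in the control livers (log2 fold change 0.04, SE 0.12). It varied less between the control livers than the other named small subunit genes with a high level, by 0.05 log2 units.

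Rps16, whose tail reaches the tRNA in the P site, had 74.9, 81.3 and 94.7 CPM in the knockout livers, against 96.1 and 58.7 CPM in the control livers, the widest ratio between control libraries in the small subunit at 0.71 log2 units. Rps15, near the decoding site, averaged 62.4 ± 2.97 CPM in the knockout livers and 57.8 ± 11.4 CPM in the control livers. Rps25, which some viral RNAs need for internal initiation, averaged 34.4 ± 3.41 CPM in the knockout livers and 33.9 ± 9.94 CPM in the control livers. Rps21 averaged 33.1 ± 4.40 CPM in the knockout livers and 32.2 ± 9.08 CPM in the control livers, and Rps26, which contacts the mRNA as it leaves, had 25.5, 27.6 and 26.7 CPM in the knockout livers, against 28.1 and 22.0 CPM in the control livers. In Rps16, Rps25 and Rps21 all knockout values lay between those of the control livers.

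Rps2, which lies at the mRNA entry side, had 43.2, 44.1 and 53.4 CPM in the knockout livers, against 61.1 and 46.9 CPM in the control livers (log2 fold change -0.20, SE 0.16). Rps27a, made as a fusion with ubiquitin, was at -0.14 (SE 0.18). Rps15a at 0.23 (SE 0.14) and Rps28 at 0.17 (SE 0.16) were above zero with groups that overlapped. Rps23, of the decoding centre, was at -0.12 (SE 0.32), and Rps29 at -0.25 (SE 0.41). Both of these had under 1 CPM in their own rows in every library.

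The paralogues with restricted tissue use were nearly absent. Rpl10l, a testis retrogene, had no count in any of the 5 libraries. Rpl39l, also known from testis, had 1 count in knockout 2 and none elsewhere. Rpl3l, the form of Rpl3 in heart and skeletal muscle, had 19, 9 and 8 counts in the knockout livers, against 5 and 3 in the control livers, and was not tested. Markers of skeletal muscle were likewise highest in knockout 1, with a summed level of 25.2, 0.603 and 1.19 CPM in the knockout livers, against 0.628 and 0.915 CPM in the control livers, and their part in the Rpl3l counts was not tested.

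In 5 of the 77 genes, or 6.49%, the groups did not overlap, beside 16.9% of all genes tested. All 3 knockout livers were above both control livers for 4 members, among them Rpl13, Rpl28 and Rpl29, beside 8.16% of all genes. They were below both for 1 member, Rpl19, beside 8.72% of all genes. Rpl13 had 4.27, 4.71 and 5.06 CPM in the knockout livers, against 3.55 and 2.91 CPM in the control livers (log2 fold change 0.53, SE 0.19, edgeR adjusted p = 1). Rpl28 had 1.5, 1.63 and 2.37 CPM in the knockout livers, against 1.29 and 1.42 CPM in the control livers (log2 fold change 0.44, SE 0.29). For Rpl28 the lowest knockout and the highest control liver lay closer together than the SD within either group, which was not so for Rpl13.

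Rpl19, which takes part in a bridge between the subunits, had 1.92, 1.75 and 2.22 CPM in the knockout livers, against 2.29 and 2.44 CPM in the control livers (log2 fold change -0.27, SE 0.21). Rpl29 had 176, 214 and 256 counts in the knockout livers, against 116 and 5 counts in the control livers. As CPM these were 5.73, 6.46 and 8.0 in the knockout livers, against 3.64 and 0.169 in the control livers (log2 fold change 1.81, SE 0.86, edgeR adjusted p = 1). Its size rested on control 3: the log2 fold change was 0.89 without control 3 and 5.27 without control 1.

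Rpl13, Rpl19, Rpl28 and Rpl29 had few counts for ribosomal protein genes, and the rest of their sequence family lay in other rows. A near-identical copy was taken as another annotated gene that matched at least 80% of a member's coding sequence at 95% identity or more. Of the 80 members, 74 had at least 1, with 583 copies in all, a median of 5 and a maximum of 57 for Rpl21. The 4 tested members with none included Rpl8, Rps3 and Rps27l. For 39 members, fewer than 50% of the 50-base windows of the transcript were found in no other gene. How the counting treated reads that match several genes is not given in the sources used here, so counts of a member and its copies are uncertain as to which gene they came from.

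Rpl13 and Rpl4 show what such copies look like, with letters that differ in capitals. The first 60 coding bases of Rpl13 (chr8:123102350-123105244, plus strand, GRCm38) are the same in the processed pseudogene Gm12918 (chr4:10848420-10849055), and the line is shown because no read within it can tell them apart. Rpl4 (chr9:64173387-64178562, plus strand) and its only copy, Gm5835 (chr1:143093347-143094616, minus strand), differ at 5 of the 60 bases shown, coding bases 798 to 857.
Rpl13 and Gm12918: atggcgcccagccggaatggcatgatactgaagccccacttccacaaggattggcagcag
Rpl4: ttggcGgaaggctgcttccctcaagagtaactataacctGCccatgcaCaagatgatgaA
Gm5835: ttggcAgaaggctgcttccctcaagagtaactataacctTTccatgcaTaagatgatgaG

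The rows of the copies held more counts than the rows of the genes. The 80 members had 113343, 117480 and 137626 counts in the knockout libraries, against 133051 and 97758 in the control libraries. Their copies, 469 rows in the table, had 207703, 211007 and 247466 counts in the knockout libraries, against 247966 and 176529 in the control libraries. The copies thus held 1.83, 1.80 and 1.80 times the members' counts in the knockout libraries, against 1.86 and 1.81 times in the control libraries. Members and copies together took 1.09%, 1.02% and 1.14% of all counts in the knockout libraries, against 1.24% and 0.886% in the control libraries.

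How much of a family's counts stood in the gene's own row differed widely. The own row held a median of 26.4% of the sum of gene and copies over the 77 tested members, 17.3% in the large and 39.6% in the small subunit. It held under 10% for 20 members and over 50% for 24. It held 84.7% for Rpl4 but 5.93% for Rpl29, 2.96% for Rpl13, 1.49% for Rpl28, 1.36% for Rpl19, 0.583% for Rps29 and 0.356% for Rps6, the substrate of the S6 kinases. In CPM per kilobase of transcript, own rows spanned 0.679 to 277, a 408-fold range, whereas sums spanned 19.5 to 457, a 23.4-fold range. By sums per kilobase the highest were Rplp1, Rpl4 and Rpl11 in the large and Rps6, Rps2 and Rps29 in the small subunit, of which Rpl11, Rps6 and Rps29 were among the low genes by their own rows. A sum may include transcripts of the copies themselves, and reads left out at counting are in neither value.

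**Figure D3:**
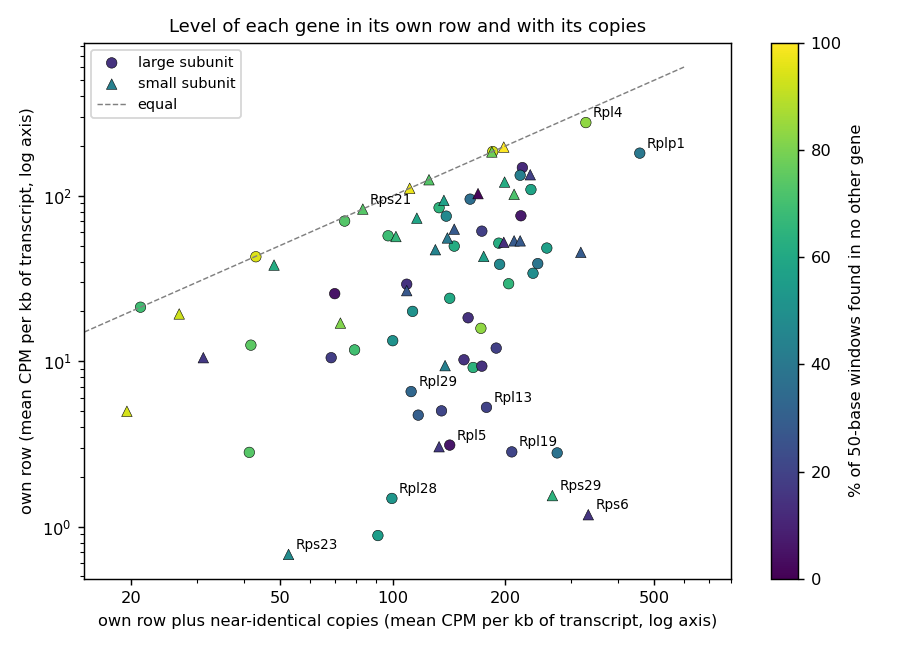
Mean level over the 5 libraries in each gene's own row (vertical axis) against the gene summed with its near-identical copies (horizontal axis), both in CPM per kilobase of transcript on log axes, for the 77 genes tested; colour gives the percentage of 50-base windows found in no other gene and the dashed line marks equality. Rpl4 and Rps21 lie on or near the line, whereas Rps6, Rps29 and Rps23 lie far below it. The only copy of Rps21 has no row of counts, so its sum is its own row.

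With each member summed with its copies, which was chosen after seeing the data, the members drew closer together and the separated genes no longer stood out. No sum passed an adjusted p of 0.05 in edgeR, where 0.00619% of the 16168 rows tested passed. None had an unadjusted p under 0.05, against 3.45% of rows, and in none did the groups separate, against 17.1% of rows. The log2 fold changes of the sums lay between -0.09 for Rps27a and 0.16 for Rpl21, and their SD across genes was 0.05, against 0.24 for the own rows. The median half-width of the 95% interval was 0.40 log2 units, as for the own rows. The interval lay within 0.5 of zero for 66 of 77 sums, against 46 own rows. The SE fell for some members with few counts in their own rows, from 0.86 to 0.13 for Rpl29. It did not fall for others, such as Rpl13, with 0.19 in both. Control 1 was above control 3 in all 77 sums, against 50.7% of rows.

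Each of the separated genes gave overlapping groups as a sum. Rpl29 had 77.5, 81.7 and 88.3 CPM in the knockout livers, against 87.8 and 75.7 CPM in the control livers (log2 fold change 0.01, SE 0.13). Rpl13 had 126, 135 and 152 CPM in the knockout livers, against 166 and 115 CPM in the control livers (log2 fold change -0.03, SE 0.19). The knockout values of Rpl13 lay inside the range of the control values, whereas knockout 3 of Rpl29 lay just above it. Rpl28 was at 0.05 (SE 0.20) and Rpl19 at 0.04 (SE 0.15). The own row was 5.93% of the sum for Rpl29, 2.96% for Rpl13, 1.49% for Rpl28 and 1.36% for Rpl19. The copies thus set most of these sums, which could not show a difference confined to the own row.

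The copies of Rpl29 differed among themselves in direction. Of the 23 copies with rows, 10 passed the filter. In 5 of these all knockout livers were above both control livers, in 3 they were below, and in 2 the groups overlapped. Over all genes tested, 8.16% were above and 8.72% below. Of all 273 near-identical copies tested, 25 had groups that did not overlap. The Rpl29 copies are close in sequence, so their rows are not separate observations. Gm13841 had 460, 527 and 600 counts in the knockout livers, against 759 and 829 in the control livers (log2 fold change -0.65, SE 0.14). Gm8210 had 87, 70 and 77 counts in the knockout livers, against 124 and 144 in the control livers (log2 fold change -0.84, SE 0.22). In both, control 3 was highest, the library in which Rpl29 itself was lowest.

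Gm10709 had 51, 56 and 46 counts in the knockout livers, against 13 and 2 in the control livers (log2 fold change 2.70, SE 0.55). It passed in DESeq2 (adjusted p = 0.0179), as 1 of 17 genes, and did not in edgeR (adjusted p = 1). Gm15454 had 32, 39 and 41 counts in the knockout livers, against 18 and 1 in the control livers. Gm8580 had 0, 2 and 0 counts in the knockout livers, against 15 and 27 in the control livers. Rpl29, Gm10709 and Gm15454 were thus high in the knockout livers and lowest in control 3, whereas Gm13841 and Gm8210 had the opposite order.

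These rows are told apart by few bases. Counted from 1 at the first base of the Rpl29 coding sequence, both Gm13841 and Gm8210 carry C72A, and they were the only tested copies that did, whereas Gm10709 and Gm15454 have the base of Rpl29 there. Gm13841 and Gm8210 carry the same substitutions: C72A, C300T and T423C. Base 72 did not go with the direction in every copy. Gm8580, with all knockout livers below, has the base of Rpl29 there, and Gm13213, with all above, carries C72T. The stretch from coding base 61 to 100 is shown with base 72 in capitals. It is a difference between annotated reference genes (GRCm38), not a variant read in these mice.
Rpl29 (chr9:106429454-106431568, plus strand): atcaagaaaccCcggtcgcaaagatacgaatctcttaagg
Gm10709 (chr9:7751672-7752325, plus strand): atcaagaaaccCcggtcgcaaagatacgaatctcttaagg
Gm15454 (chr1:134518081-134518563, plus strand): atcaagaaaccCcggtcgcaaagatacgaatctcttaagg
Gm13841 (chr5:115801677-115802159, minus strand): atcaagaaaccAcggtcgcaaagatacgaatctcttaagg
Gm8210 (chr1:43189156-43189638, plus strand): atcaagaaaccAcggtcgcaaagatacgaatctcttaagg

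**Figure D4:**
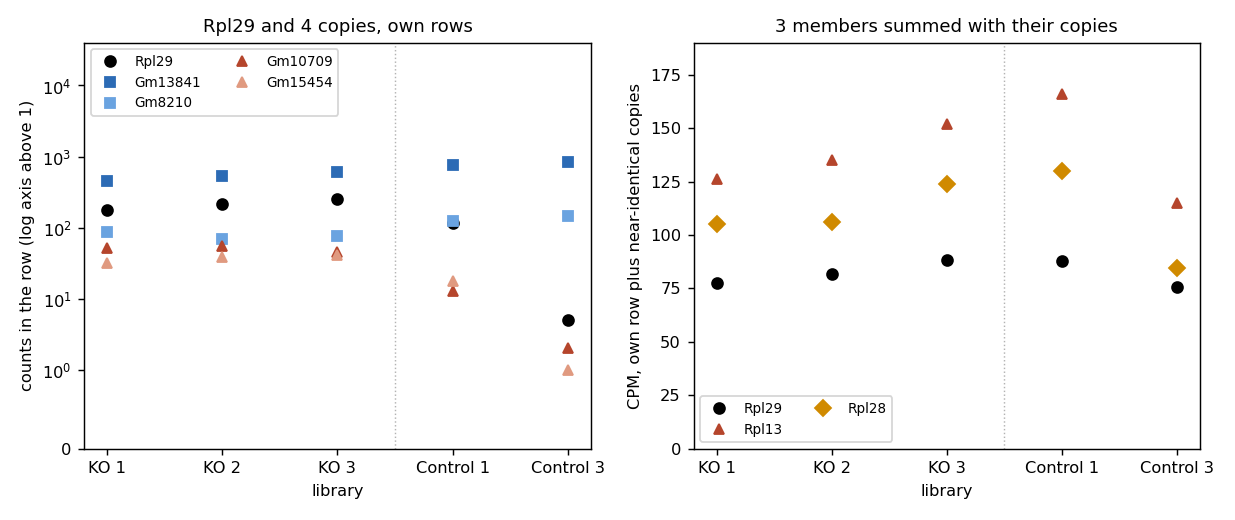
Left, counts in the rows of Rpl29 and 4 of its near-identical copies by library (vertical axis, log above 1); right, CPM of 3 members summed with their copies (vertical axis, linear), with knockout libraries left of the dotted line. Rpl29, Gm10709 and Gm15454 drop in control 3 while Gm13841 and Gm8210 are highest there, and the sums overlap between the groups.

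For Rps29, the copy Gm14303 is 100% identical over the aligned coding sequence and had 1615, 1634 and 1879 counts in the knockout livers, against 1958 and 1298 in the control livers, while Rps29 itself had under 1 CPM. On chromosome 9, 6 tested genes that flank Rpl29, taken from both of its sides, went both ways. Alas1, the rate-limiting enzyme of haem synthesis, was at 1.71 (SE 0.64) with groups that overlapped, Dusp7 was at -0.58 (SE 0.23) with all knockout livers below the control livers, and Abhd14a at 0.53 (SE 0.24) with all above.

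The members share features that the rule did not use. Small nucleolar RNA genes, whose products guide modification of ribosomal RNA, lie within the span of 29 of the 80 members, or 36.2%, against 2.13% of the 22028 protein-coding genes of the annotation. They number 57, in 20 large and 9 small subunit genes. Another gene on the opposite strand overlaps 17 members, and without a stated strand setting the reads of such pairs cannot be told apart.

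Runs of pyrimidines were more frequent near the start of members than over all windows. A RefSeq promoter window (build GRCm38.p6, 250 bases before to 50 after the start) was matched for 60 members. A run of at least 8 pyrimidines, C or T, reaching into the bases from 20 before to 30 after the start on the gene's strand, was found in 40 of the 60, or 66.7%, against 23.5% of all 32851 windows. Such a run need not lie at the start. That of Rpl13, 10 bases long, began 16 bases before it, and that of Rpl4, 15 bases long, began at base 27. The share is thus not that of members with a TOP tract. The motif CCGGAAG, on either strand, as bound by factors of the ETS family, was in 40.0% of member windows and 8.86% of all windows. The motif TATAAA was in 8.33% of member windows and 13.6% of all, CCAAT in 31.7% and 37.4%, and AAGATGGC in 6.67% and 2.75%. A match is a description of the letters and not a shown binding site.

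Windows of some members whose own rows hold a small part of their family are shown. They reach from 50 bases before the RefSeq start to 25 bases from it, with the pyrimidine run in capitals. They are given because a processed copy is made from the mRNA and does not carry the bases before the start. Not every member with a small own row has a run near the start: Rps13 had none, and that of Rps23 began at base 25.
Rpl13 (chr8:123102300-123102374, plus strand): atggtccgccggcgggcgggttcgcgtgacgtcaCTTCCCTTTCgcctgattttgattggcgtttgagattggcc
Rpl28 (chr7:4792915-4792989, plus strand): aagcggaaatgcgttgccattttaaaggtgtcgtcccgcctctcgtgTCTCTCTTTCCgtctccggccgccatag
Rpl19 (chr11:98026874-98026948, plus strand): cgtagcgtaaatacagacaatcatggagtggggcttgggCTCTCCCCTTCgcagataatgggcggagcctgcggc
Rps6 (chr4:86857343-86857417, minus strand): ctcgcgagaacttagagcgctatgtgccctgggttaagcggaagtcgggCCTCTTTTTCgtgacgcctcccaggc
Rps10 (chr17:27635220-27635294, minus strand): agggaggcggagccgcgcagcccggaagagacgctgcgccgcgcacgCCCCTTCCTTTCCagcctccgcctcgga

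The other genes of translation were described beside the members. A list of 22 genes known for TOP transcripts held translation factors, related proteins and the noncoding RNAs Gas5 and Snhg1. Of these 22, 12 were above and 10 below zero, none passed the adjusted threshold, and the median log2 fold change was 0.01. Their summed level was 4810, 4620 and 5100 CPM in the knockout livers, against 5410 and 4270 CPM in the control livers, and control 1 was above control 3 for 21 of 22. Control 1 was highest and control 3 lowest in this sum, whereas knockout 3 was highest in the sums of both ribosomal subunits. Naca, a chaperone of nascent chains, was at 0.28 (SE 0.11, edgeR adjusted p = 1), Btf3, its partner, at 0.21 (SE 0.14), and Pabpc1, the poly(A) binding protein, at -0.18 (SE 0.12).

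A list of 8 genes with other symbols, for ribosomal proteins or named for their likeness to one, had a median of 0.04. Rsl24d1, named for its likeness to Rpl24, was at 0.18 (SE 0.15), and Rpl22l1, a paralogue of Rpl22, at -0.13 (SE 0.18). Of 16 genes of the TOR and LARP1 axis, 8 were above and 8 below zero, with a median of 0.00. Eif4ebp2, a repressor of cap-dependent initiation, was at -0.20 (SE 0.13), Mlst8, a shared subunit of the TOR complexes, at 0.26 (SE 0.23), and Rptor, the subunit that defines TOR complex 1, at 0.09 (SE 0.12). None of these lists held a gene past the adjusted threshold in edgeR.

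Genes of ribosome biogenesis had another order of libraries. Of 45 tested, 38 were above zero and 7 below, beside 8562 above zero of all 16441 genes tested. The median was 0.11, and none passed the adjusted threshold. How this count changes on leaving out a control liver was not tested. The summed level was 975, 890 and 1130 CPM in the knockout livers, against 897 and 928 CPM in the control livers, with knockout 3 highest and knockout 2 lowest. Nhp2, a core protein of H/ACA particles, was at 0.29 (SE 0.11, edgeR adjusted p = 1), and Nop56, of the box C/D particles, had 14.5, 13.6 and 22.7 CPM in the knockout livers, against 11.2 and 12.5 CPM in the control livers. Groups did not overlap for 7 of the 45 genes, beside 16.9% of all genes. Nop10, another H/ACA protein, was at 0.20 (SE 0.10).

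Of 77 mitochondrial ribosomal protein genes, which encode the separate ribosome of that organelle, 57 were above zero, beside 8562 of all 16441 genes tested. The median was 0.06, and none passed the adjusted threshold. The count above zero was likewise not tested without a control liver. Mrpl18 had 48.6, 43.2 and 44.7 CPM in the knockout livers, against 35.6 and 36.7 CPM in the control livers (log2 fold change 0.33, SE 0.11, edgeR adjusted p = 1). Mrps18a was at 0.27 (SE 0.14) and Mrpl48 at 0.30 (SE 0.17). Groups did not overlap for 16 of the 77 genes, beside 16.9% of all genes. Short transcripts of other genes, 371 in all with lengths under 1000 bases, had a median of 0.05.

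**Figure D5:**
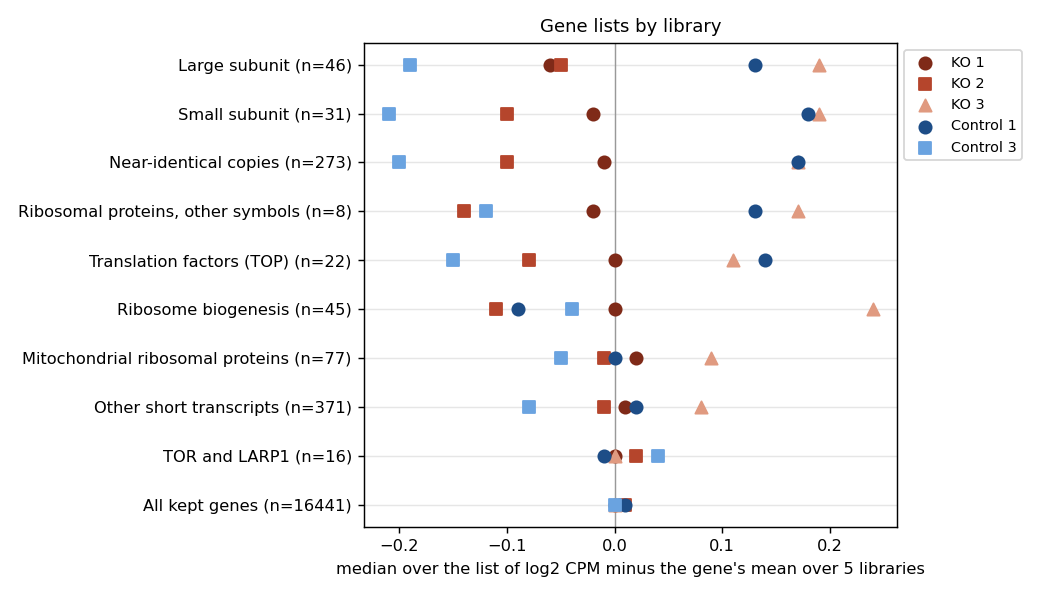
Median over each gene list of the deviation of log2 CPM from the gene's mean over the 5 libraries (horizontal axis), by list (rows, with the number of genes tested) and library (symbols). The members, their copies and the TOP translation factors have knockout 3 and control 1 high and control 3 low or near lowest, while mitochondrial ribosomal proteins and all kept genes lie close to zero.

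Other cell types and abundant transcripts also differed between libraries. The 8 markers of sinusoidal endothelium were all below zero, with a median log2 fold change of -0.44 and a sum of 250, 189 and 178 CPM in the knockout livers, against 230 and 287 CPM in the control livers. The 8 Kupffer cell and macrophage markers summed to 224, 185 and 193 CPM in the knockout livers, against 198 and 250 CPM in the control livers. The 8 stellate cell markers summed to 286, 241 and 200 CPM in the knockout livers, against 267 and 278 CPM in the control livers. Both endothelial and macrophage markers were highest in control 3, the library with the lowest ribosomal protein level. The summed level of the hepatocyte markers was also lowest there, but their median log2 deviation was not: it was -0.08, -0.12 and 0.17 in the knockout livers, against 0.08 and 0.00 in the control livers. The largest single gene took 6.31%, 6.11% and 8.11% of counts in the knockout libraries, against 8.32% and 10.9% in the control libraries, Alb in all but knockout 3 and control 3, where it was Mup7. The part of these differences in the order of the libraries was not tested.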

How the data were processed

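Gene counts deposited by the authors, 1 row per gene, were used as whole-number counts with no normalization. Per the submitters' processing notes, reads were trimmed with Trimmomatic 0.33, aligned with Subread 1.4.6-p4 to mm10 and counted with featureCounts 1.4.6-p4. The strand setting and the treatment of multi-mapping reads are not given in the sources used. The kit is TruSeq RNA, per the labels' protocols. With edgeR 4.0.16, rows were filtered by filterByExpr, scaled by TMM and fitted by the quasi-likelihood test with 3 knockout and 2 distinct control libraries, with Benjamini-Hochberg adjustment over all genes; CPM are TMM-scaled. DESeq2 1.42.0 and limma 3.58.1 (voom) were alternatives. The procedure was tested on simulated data. Copies were found with BLAST+ 2.17.0 in GENCODE vM21 transcripts; sums with copies were chosen after seeing the data. Sequences of windows come from the GRCm38 reference and RefSeq. Members and gene lists were chosen with earlier results of these data known. Genes named were, per subunit, the 6 highest by level per exon length, the 4 highest and 4 lowest fold changes, the 3 widest control ratios, those with an unadjusted p under 0.05 and paralogues, and, of each related list, the 3 with the smallest p; other genes were named after their values were seen, and some members and other genes are not reported here by name. Likeness of expression pattern across libraries was not computed, since 5 distinct libraries are under the 6 needed for a correlation.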

Additional observations from a re-analysis of the deposited data

How the results depend on the processing

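No ribosomal protein gene passed the adjusted threshold under any of the 14 alternatives run: 3 other scalings, no low-count filter, DESeq2, limma-voom, leaving out each of the 5 distinct libraries, all 6 columns as deposited, the replicate block and summing with copies. The median log2 fold change depended on the control livers. Leaving out 1 library gave -0.12 to 0.21 for the large and -0.15 to 0.25 for the small subunit; the highest values, 0.21 and 0.25, came without control 1 and the lowest without control 3, and members above zero numbered 69 and 16 of 77 in these fits. Without knockout 3 the medians were -0.04 and -0.06, with all 6 columns -0.02 and -0.01, and leaving out members with under 50% of windows unique kept them at 0.03 and 0.05. With these controls the direction of the members' median is not settled. The replicate number as a block gave medians of 0.08 and 0.10, and moved Mtdh to -4.28 with an adjusted p of 0.0517. Samples with the same number were hardly alike (r = 0.06 and 0.15), and distinct libraries share 2 numbers, so the numbers were not taken as pairs. Over all genes, edgeR called 1, against 3 with no filter, 17 in DESeq2, 6 without control 3 and 0 with the block. Of 434 values for 31 named genes, 42 moved by more than the spread between replicates, 34 of them on leaving out a control. Rpl29 gave 2.96 in limma-voom.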
